A study of Mus musculus with 6 samples.

Results

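A set of 31 genes for the synthesis, sensing, uptake, esterification and efflux of sterols was followed in newborn mouse intestine treated with NECA or its vehicle. The genes were taken by name from the 54532 genes of each deposited file. Each name had 1 row, and all 31 genes were among the 15847 that passed the filter on low counts. By role, 20 encode enzymes of sterol synthesis and 11 encode sensors, uptake and storage proteins and efflux transporters. RNA came from intestine of newborn C57BL/6 mice, an inbred strain. NECA (N-ethylcarboxamidoadenosine), an adenosine analogue that activates several adenosine receptors, was applied for 5 days in 3 libraries, and DMSO, the solvent, was the treatment of the 3 others. Strain, age and tissue were the same in both groups. The labels speak of treated intestine tissue and say neither which segment of bowel it was nor whether animals or tissue outside the animal were treated. Whether each library is its own animal is not stated, so the p-values measure the spread between these libraries, which may be technical in part.

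Cells make cholesterol from acetyl-CoA through mevalonate, farnesyl diphosphate, squalene and lanosterol. When sterols in the endoplasmic reticulum are low, the protein Scap carries the transcription factor encoded by Srebf2 to the Golgi, where it is cut and released to switch on the synthesis enzymes. When sterols are high, the Insig proteins hold Scap back. Enterocytes also take up dietary and biliary cholesterol through Npc1l1, esterify it with Soat2 for export in chylomicrons, and return plant sterols and surplus cholesterol to the lumen through the paired transporters Abcg5 and Abcg8.

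The libraries held 15531996 to 18065078 counts, and 21564 to 21946 genes had at least 1 count. The complementary DNA was amplified before sequencing, per the labels' protocols, and no molecular identifiers are mentioned, so counts of low genes carry more error than their number alone gives. NECA replicate 2 stood apart: its median correlation with the other libraries was 0.935 across genes, which are not independent replicates, against 0.961 to 0.980 for the others, and mitochondrial transcripts took 1.31% of its counts against 2.80% to 8.39%. The counts, medians and the fold changes that it moved most are therefore given with and without it. All 8 epithelial markers, Vil1, Cdh17, Cdx2, Epcam, Krt8, Krt20, Lgals4 and Fabp2, were tested, and their summed level was 10134 to 10741 CPM in DMSO and 9858 to 11584 CPM in NECA. By Xist and Y-chromosome transcripts, DMSO replicate 2 and NECA replicate 1 were male and the other libraries female.

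Promoter windows of RefSeq on GRCm38.p6, 250 bases before to 50 bases after each start, were found for 26 of the 31 genes. Those of Fdps, Fdft1, Sqle, Soat2 and Stard4 were not among them. The stretches before the start are shown for 4 synthesis enzymes that were at their highest in the same library (Hmgcs1, Mvk, Mvd and Lss), for the uptake protein gene Npc1l1, which was at its lowest there, and for the 109 bases between the RefSeq start sites of Abcg5 and Abcg8, which lie head to head, 110 bases apart. Each stretch reads 5′ to 3′ on the strand of the named gene, Abcg5 for the last. The RefSeq start of Npc1l1 lies upstream of the GENCODE span given below. Bases after it were not found in a GENCODE transcript of Npc1l1, whereas those of the other genes shown were found in theirs. Capitals mark the letters TCACNCCAC (a sterol regulatory element), CCAAT (the box bound by NF-Y) and GGGCGG (a GC box) on either strand, so ATTGG is a CCAAT box on the other strand.
Hmgcs1, chr13:119690101-119690350, + strand: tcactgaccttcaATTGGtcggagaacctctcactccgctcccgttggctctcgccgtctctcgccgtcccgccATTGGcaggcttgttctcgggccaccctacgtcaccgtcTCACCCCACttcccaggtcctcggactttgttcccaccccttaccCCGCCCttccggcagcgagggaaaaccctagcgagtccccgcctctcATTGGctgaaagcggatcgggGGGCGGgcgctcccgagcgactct
Mvk, chr5:114444019-114444268, + strand: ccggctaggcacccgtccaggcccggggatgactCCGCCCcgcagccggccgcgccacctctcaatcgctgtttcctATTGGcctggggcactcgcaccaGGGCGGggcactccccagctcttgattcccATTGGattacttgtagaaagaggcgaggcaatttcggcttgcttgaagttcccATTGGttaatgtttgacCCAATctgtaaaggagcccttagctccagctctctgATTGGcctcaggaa
Mvd, chr8:122443423-122443672, - strand: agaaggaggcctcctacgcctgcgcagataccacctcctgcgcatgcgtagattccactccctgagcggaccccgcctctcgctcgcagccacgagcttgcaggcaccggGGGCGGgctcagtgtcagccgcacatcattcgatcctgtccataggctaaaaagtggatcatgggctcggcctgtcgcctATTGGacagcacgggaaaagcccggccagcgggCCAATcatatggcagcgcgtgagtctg
Lss, chr10:76531355-76531604, + strand: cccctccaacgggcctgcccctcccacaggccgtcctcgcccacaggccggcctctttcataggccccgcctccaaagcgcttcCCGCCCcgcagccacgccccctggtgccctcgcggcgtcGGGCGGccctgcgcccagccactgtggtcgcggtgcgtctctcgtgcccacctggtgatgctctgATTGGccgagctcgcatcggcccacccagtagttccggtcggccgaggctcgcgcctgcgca
Npc1l1, chr11:6230246-6230495, - strand: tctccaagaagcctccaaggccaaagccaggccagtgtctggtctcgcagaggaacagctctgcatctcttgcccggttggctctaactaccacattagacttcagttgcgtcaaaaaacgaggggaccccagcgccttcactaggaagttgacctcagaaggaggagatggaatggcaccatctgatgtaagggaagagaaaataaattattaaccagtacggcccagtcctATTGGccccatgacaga
Abcg5 to Abcg8, chr17:84683012-84683120, - strand: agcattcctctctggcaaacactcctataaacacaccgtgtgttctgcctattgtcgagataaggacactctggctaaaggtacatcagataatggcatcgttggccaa

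In the full windows, CCAAT in either orientation was in 16 of 17 synthesis enzymes with a window and in 7 of 9 of the other members, against 41.1% of all 27025 genes in the table. The GC box was in 15 of 17 and 6 of 9, against 38.2% of all genes. The sterol regulatory element letters were in 1 of 17 synthesis enzymes, Hmgcs1, 137 to 129 bases before the start, against 1.44% of all genes. The palindrome CACGTG (an E-box) was in 3 of 17 and 3 of 9, against 8.09%, and the direct repeat bound by LXR (AGGTCA, any 4 bases, AGGTCA) was in none of the 26, against 0.0148%. A gene counted as having a motif if any of its windows held the letters, so genes with several starts had more chances. By the window richest in G and C of each gene, the median was 62.3% for synthesis enzymes and 65.0% for the other members. For all genes it was 53.3%. Neither GC content nor the number of windows was accounted for. In Abcg5 the CCAAT box lay on the start itself, at bases 1 to 5 after it. These are matches of letters in a fixed window and show no binding.

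Levels can be set against each other between genes only per transcript length, for which the FPKM values of the DMSO libraries were used. The highest was Npc1l1, the cholesterol importer of the brush border, at 96.2, 107 and 144 FPKM in the DMSO libraries (mean 116 ± 25.2, SD, n = 3). Abcg5 (65.2 ± 1.35 FPKM), Soat2 (63.1 ± 11.4), Abcg8 (47.2 ± 8.26) and Insig1 (39.5 ± 7.37) followed, and of these 4 each overlapped its neighbour in the order. All 5 lay above every synthesis enzyme.

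Among the enzymes Hmgcs1, the synthase early in the mevalonate pathway, was highest at 25.5 ± 1.89 FPKM (SD, n = 3), followed by Ebp, a sterol isomerase, at 22.4 ± 0.263 FPKM. The ranges of these 2 genes did not overlap with each other or with the gene next below. From Srebf2 (19.8 ± 0.732 FPKM) down to Hsd17b7 (5.07 ± 0.815 FPKM), 19 genes in all, neighbours in the order overlapped. The order of neighbours is therefore not resolved, though genes further apart in it, such as these 2, did not overlap. Lss, Mylip and Tm7sf2 lay together at 2.14 to 2.21 FPKM, and Abca1 was at 1.25 ± 0.380 FPKM. Fdps, the farnesyl diphosphate synthase, was lowest at 0.348 ± 0.0618 FPKM, from 22, 22 and 28 counts in DMSO. The annotated gene Gm43738 covers 7512 bases of Fdps on the same strand and was listed at 0 in every library, so the level of Fdps is uncertain, since how reads matching both were counted is not given in the sources used here.

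**Figure D1:**
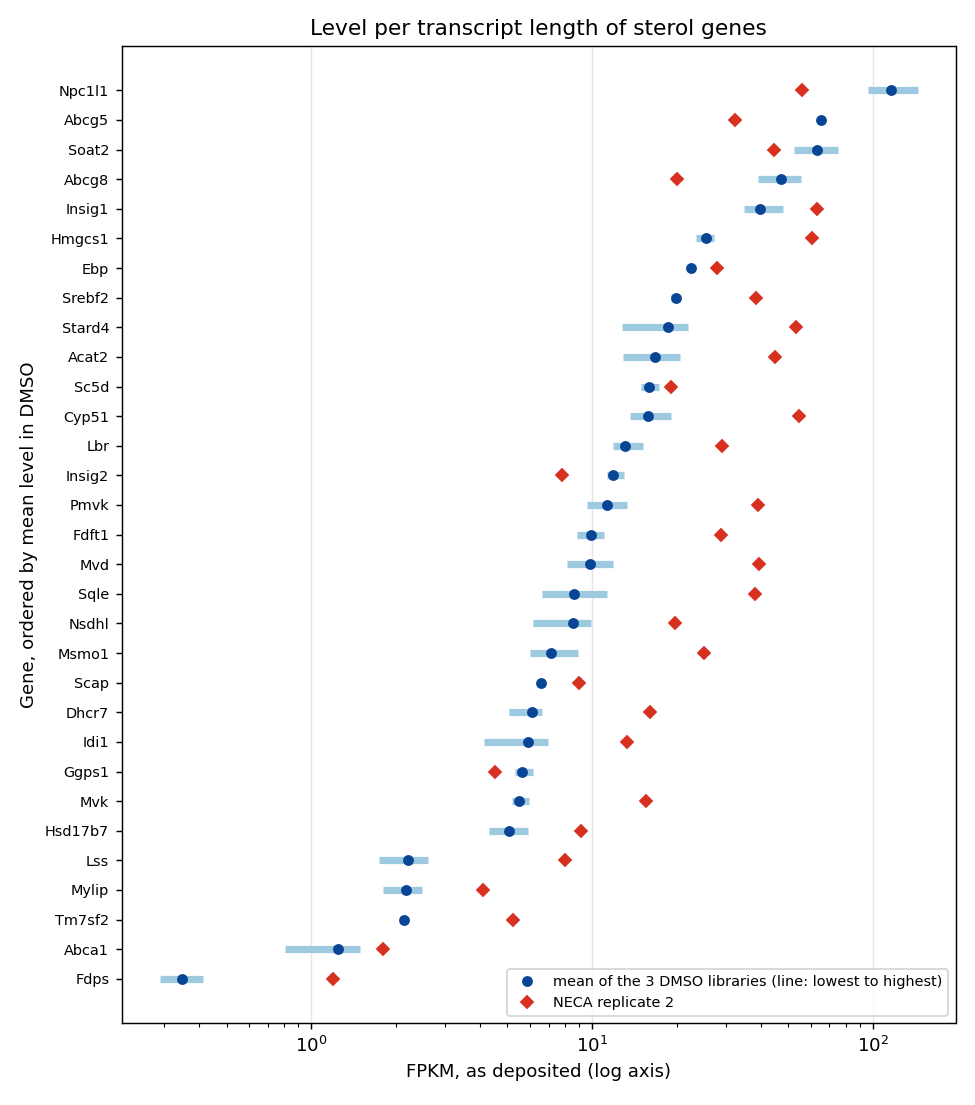
Level of each of the 31 genes in FPKM (log axis), ordered by the mean of the 3 DMSO libraries (circles, with lines from lowest to highest), and the level in NECA replicate 2 (diamonds). Npc1l1, Abcg5, Soat2 and Abcg8 head the order in DMSO, and in NECA replicate 2 these 4 lay below their DMSO range while most enzymes lay above it.

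No sterol gene passed the test between NECA and DMSO. Of the 31 genes, 0 had an adjusted p under 0.05 with the quasi-likelihood test of edgeR, Benjamini-Hochberg adjusted over all 15847 genes (smallest adjusted p 0.738), and 0 had an unadjusted p under 0.05. Across all genes the same test called 0, or 0%, and 5.48% had an unadjusted p under 0.05. DESeq2 called 0 of the 31 and 0.0695% of all genes. The groups overlapped in all 31, whereas 13.7% of all genes had groups that did not overlap. The fitted log2 fold change (NECA over DMSO) was above 0 in 25 of the 31, against 49% of all genes, with a median of 0.48 against -0.01 over all genes. That median rested on 1 library: without NECA replicate 2 the fold change was above 0 in 8 of the 31, against 47.4% of all genes, and the median was -0.05 against -0.02 over all genes. The text below gives CPM scaled with TMM factors, which can be compared between libraries for 1 gene but not between genes.

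In the mevalonate pathway, 7 of 8 genes were at their highest in NECA replicate 2. Hmgcs1 (chr13:119690379-119708260) was at 109, 122 and 126 CPM in DMSO and 81.9, 282 and 90.8 CPM in NECA. NECA replicate 2 was the highest of the 6, and NECA replicates 1 and 3 were the lowest, below all 3 DMSO libraries. The log2 fold change was 0.35 (SE 0.45, adjusted p = 0.819) with all libraries and -0.46 (SE 0.13, adjusted p = 0.848) without NECA replicate 2, an unadjusted p of 0.00914 there that did not hold over all genes.

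Mvd (chr8:122433601-122443422), the decarboxylase that makes isopentenyl diphosphate, was at 15.3, 17.9 and 22.3 CPM in DMSO and 13.4, 74.2 and 19.3 CPM in NECA, a log2 fold change of 0.95 (SE 0.59, adjusted p = 0.738). Its level in NECA replicate 2 was 3.33 times that of the highest other library. Without that library the log2 fold change of Mvd was -0.17 (SE 0.23). Pmvk, the kinase before it, was at 18.8, 16.8 and 23.1 CPM in DMSO and 15.6, 67.8 and 22.1 CPM in NECA. Mvk, which adds the first phosphate to mevalonate, was at 14.5, 14.1 and 16.1 CPM in DMSO and 10.1, 42.1 and 14.4 CPM in NECA. In all 3 of these kinase and decarboxylase genes NECA replicate 1 was the lowest library and NECA replicate 2 the highest. The annotated gene Gm20388 covers 9822 bases of Mvd on the opposite strand and was listed at 0 in every library. No strand setting is given, so the level of Mvd is uncertain.

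Acat2, the thiolase at the entry of the pathway, was at 43.0, 33.5 and 52.8 CPM in DMSO and 45.9, 116 and 37.6 CPM in NECA. Idi1, the isomerase of isopentenyl diphosphate, was at 24.6, 14.8 and 23.6 CPM in DMSO and 16.7, 47.2 and 18.4 CPM in NECA, and Fdps had 16, 102 and 20 counts in NECA. In these genes too the NECA libraries other than replicate 2 lay within the DMSO range or below it. Ggps1 was the exception of the pathway. It makes geranylgeranyl diphosphate, which leaves the route to sterols, and was at 29.4, 26.0 and 25.3 CPM in DMSO and 25.4, 21.5 and 23.4 CPM in NECA, lowest in NECA replicate 2 (log2 fold change -0.20, SE 0.15, adjusted p = 0.738, or -0.14, SE 0.15, without that library).

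Past farnesyl diphosphate, all 12 genes of the route from squalene to cholesterol were at their highest in NECA replicate 2, but by unequal amounts. Sqle (chr15:59315077-59331192), the squalene epoxidase, stood furthest out. It was at 44.8, 37.6 and 63.0 CPM in DMSO and 38.4, 213 and 47.8 CPM in NECA, so that NECA replicates 1 and 3 lay inside the DMSO range. Its fold change was the largest of the 31 with all libraries (1.04, SE 0.62, adjusted p = 0.738) and was -0.17 (SE 0.23, adjusted p = 0.915) without NECA replicate 2.

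Lss, which closes squalene epoxide into lanosterol, was at 24.6, 19.3 and 28.4 CPM in DMSO and 21.5, 87.3 and 25.5 CPM in NECA. Cyp51, the lanosterol demethylase, was at 60.9, 67.3 and 84.8 CPM in DMSO and 44.4, 244 and 59.2 CPM in NECA. As in Hmgcs1, the other NECA libraries were the lowest of the 6. The log2 fold change of Cyp51 was 0.71 (SE 0.59) with all libraries. Without NECA replicate 2 it was -0.45 (SE 0.19, unadjusted p = 0.0467, adjusted p = 0.848). Fdft1, which joins farnesyl units into squalene, was at 37.6, 42.5 and 47.1 CPM in DMSO and 27.0, 123 and 36.7 CPM in NECA. It shares 774 bases on opposite strands with the far more abundant cathepsin gene Ctsb, and no strand setting is given, so some of its counts cannot be told apart from those of Ctsb.

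Msmo1, which removes methyl groups from the ring, was at 40.1, 37.7 and 55.1 CPM in DMSO and 33.2, 155 and 40.5 CPM in NECA. Dhcr7, the reductase of the last step, was at 38.9, 30.0 and 38.9 CPM in DMSO and 29.3, 94.5 and 40.1 CPM in NECA. Both were at more than 2 times the level of any other library in NECA replicate 2, and in both its removal left fold changes below 0 (-0.26, SE 0.20, and -0.05, SE 0.19). Nsdhl, an X-linked dehydrogenase of the same route, was at 28.5, 18.0 and 27.8 CPM in DMSO and 24.0, 57.0 and 28.4 CPM in NECA.

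The sterol reductases Lbr and Tm7sf2, which act on the same double bond, were alike in pattern. Lbr was at 59.5, 57.5 and 73.2 CPM in DMSO and 62.9, 139.7 and 63.4 CPM in NECA. Tm7sf2 was at 12.0, 11.8 and 12.5 CPM in DMSO and 10.8, 29.5 and 13.1 CPM in NECA. It shares 532 bases on the same strand with Vps51, which had 216 counts over all libraries against 1579 for Tm7sf2. How reads matching both were counted is not given, so the level of Tm7sf2 is uncertain in part. The remaining 3 enzymes differed less between libraries. Hsd17b7 was at 22.4 to 30.5 CPM in DMSO and 29.7 to 47.0 CPM in NECA (a log2 fold change of 0.45, SE 0.22), the smallest unadjusted p of the 31 (0.0819, adjusted p = 0.738). Ebp was at 51.6 to 53.4 CPM in DMSO and 45.7 to 65.1 CPM in NECA, and Sc5d, a desaturase, at 74.1 to 85.0 and 81.75 to 93.7 CPM. In NECA replicate 2, Sc5d was 1.10 times and Ebp 1.22 times the highest other library.

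**Figure D2:**
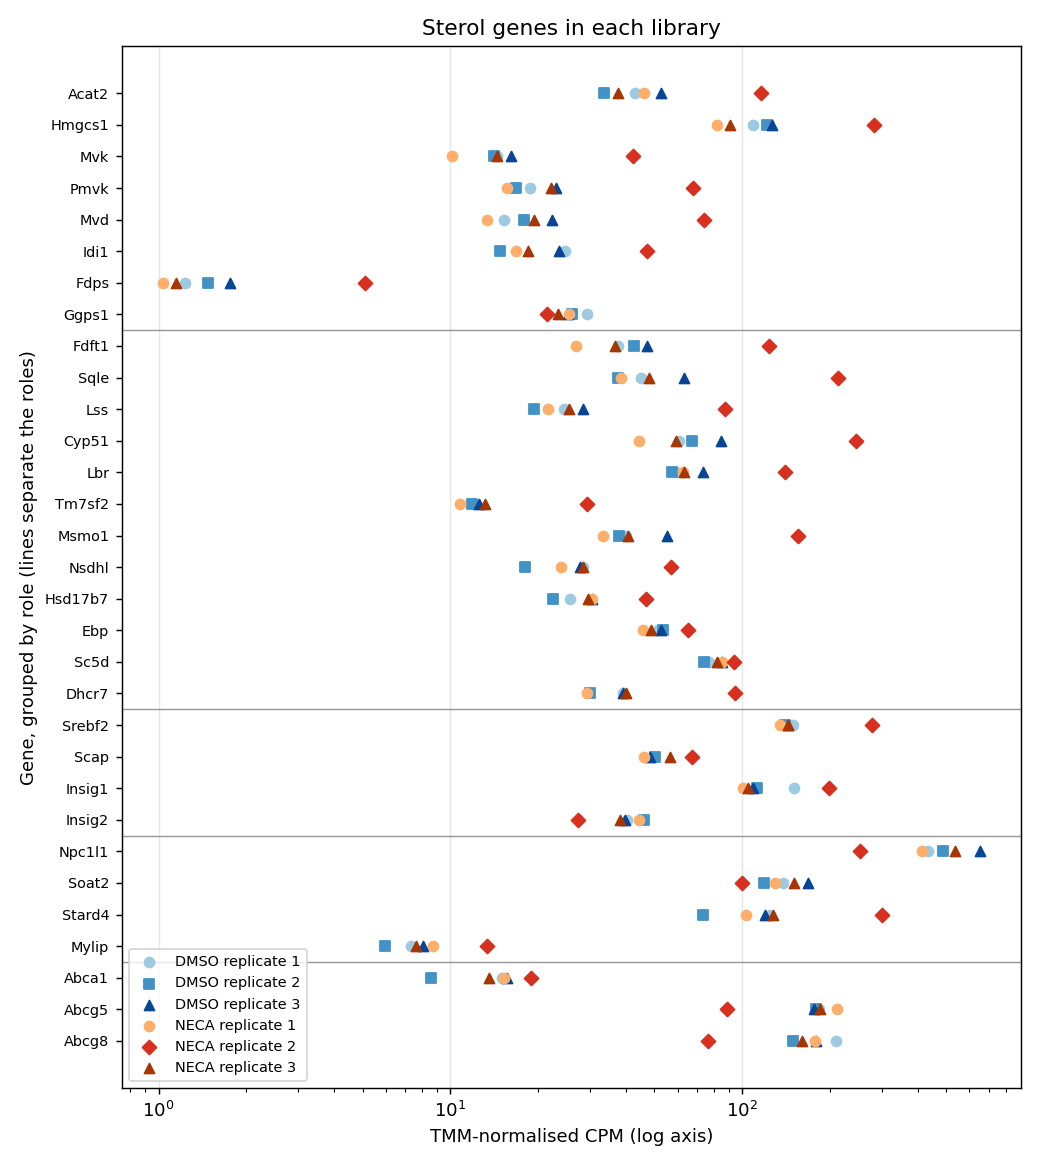
TMM-normalised CPM (log axis) of the 31 genes in each library, with DMSO in blue, NECA in orange and red, and lines between the 5 roles. The red diamond of NECA replicate 2 lies right of the other 5 libraries in 25 genes and left of them in 6 (Ggps1, Insig2, Npc1l1, Soat2, Abcg5 and Abcg8).

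The 4 sensing genes did not share 1 pattern. Srebf2, the transcription factor of the pathway, was at 149, 140.3 and 143 CPM in DMSO and 134, 278 and 144 CPM in NECA (a log2 fold change of 0.36, SE 0.28, adjusted p = 0.741). Apart from NECA replicate 2 its libraries lay within 1.11 times of each other. Scap, its escort, was at 48.5 to 50.4 CPM in DMSO and 45.9 to 67.3 CPM in NECA. The 2 Insig genes differed: Insig1 was at 149.8, 112 and 109 CPM in DMSO and 101, 198 and 105 CPM in NECA, highest in NECA replicate 2, whereas Insig2 was at 40.3, 45.9 and 39.5 CPM in DMSO and 44.2, 27.4 and 38.2 CPM in NECA, lowest in that library. Their log2 fold changes were 0.12 (SE 0.29) and -0.20 (SE 0.20) with all libraries, and -0.26 (SE 0.17) and -0.02 (SE 0.14) without NECA replicate 2. That of Scap was 0.19 (SE 0.16) and 0.05 (SE 0.14).

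The genes of uptake, storage and carrying went in both directions. Npc1l1 (chr11:6211013-6230143) was at 434, 488 and 650.4 CPM in DMSO and 414, 253 and 534 CPM in NECA. NECA replicate 2 was the lowest library and DMSO replicate 3 the highest, and the log2 fold change was -0.39 (SE 0.30, adjusted p = 0.741), or -0.14 (SE 0.21) without NECA replicate 2. Soat2, which esterifies absorbed cholesterol, was at 138, 119 and 168 CPM in DMSO and 129.7, 99.8 and 149.8 CPM in NECA, with the same libraries at its ends (log2 fold change -0.16, SE 0.21, or -0.01, SE 0.17, without NECA replicate 2).

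Stard4, a soluble carrier of sterols inside the cell and itself a target of the Srebf2 protein, followed the enzymes. It was at 124, 73.1 and 119 CPM in DMSO and 103, 300.5 and 128 CPM in NECA (a log2 fold change of 0.75, SE 0.41, adjusted p = 0.738), or 0.13 (SE 0.24) without NECA replicate 2. Mylip, a ubiquitin ligase induced by oxysterols through LXR, was low, at 7.31, 5.96 and 8.06 CPM in DMSO and 8.72, 13.4 and 7.64 CPM in NECA. It too was highest in NECA replicate 2, with a log2 fold change of 0.48 (SE 0.27), or 0.20 (SE 0.23) without that library.

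Of the 3 efflux genes, the paired transporters were lowest in NECA replicate 2. Abcg5 (chr17:84658234-84683011) was at 183, 178 and 176 CPM in DMSO and 211, 88.9 and 184 CPM in NECA. The other NECA libraries were the highest of the 6, and the log2 fold change was -0.15 (SE 0.30, adjusted p = 0.886) with all libraries and 0.15 (SE 0.13, adjusted p = 0.870) without NECA replicate 2. Abcg8 (chr17:84676302-84700333) was at 210.1, 149 and 178 CPM in DMSO and 178, 76.1 and 160.3 CPM in NECA (a log2 fold change of -0.38, SE 0.31, adjusted p = 0.750), or -0.08 (SE 0.17) without NECA replicate 2.

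The annotated spans of these 2 genes overlap by 6710 bases on opposite strands, and no strand setting is given, so their counts cannot be fully separated. The ratio of Abcg5 to Abcg8 in FPKM was 1.20, 1.65 and 1.37 in DMSO and 1.64, 1.62 and 1.59 in NECA, so it did not stand apart in NECA replicate 2. Abca1, which passes cholesterol to apolipoprotein A1 and is another gene induced through LXR, was at 15.01, 8.57 and 15.6 CPM in DMSO and 15.3, 18.8 and 13.5 CPM in NECA. Without DMSO replicate 2, its lowest library, the log2 fold change of Abca1 went from 0.28 (SE 0.26) to 0.05, and without NECA replicate 2 it was 0.14 (SE 0.28).

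The summed level of the 20 synthesis enzymes was 756, 718 and 890 CPM in DMSO and 663, 2005 and 742 CPM in NECA. That of Npc1l1, Abcg5 and Abcg8 was 826, 816 and 1005 CPM in DMSO and 803, 418 and 878 CPM in NECA. These 3 genes were summed after their low values in NECA replicate 2 were seen, so the second sum is a description, and the sums are compared between libraries and not with each other. Abca1, the other efflux gene, is not in that sum and was at its highest in NECA replicate 2 (18.8 CPM).

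NECA replicate 2 was the highest library in 19 of 20 synthesis enzymes and 6 of the 11 other members, against 30.1% of all genes. It was at least 1.5 times the highest other library in 17 and 3 of them, against 6.61%, and at least 2 times in 14 and 1, against 1.94%. It lay under the lowest other library by 1.5 times or more in 3 of the 31 genes, Npc1l1, Abcg5 and Abcg8, against 8.47% of all genes. These counts describe 1 library and have no replicate check.

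Marker genes of bowel position and of proliferation also stood apart in this library. In NECA replicate 2 the 9 tested proximal bowel genes (Gata4, Pdx1, Ada, Gkn3, Bche, Fabp1, Lct, Onecut2 and Slc5a1) summed to 688 CPM, against 5502 to 6186 CPM in the other libraries. All 9 were at their lowest there, against 27.9% of all genes. The 9 ileal genes summed to 3245 CPM against 525 to 1048 CPM, and 8 were at their highest there, against 30.1% of all genes. All 14 proliferation genes were at their highest, with a sum of 2319 CPM against 910.4 to 1210 CPM. By group, the proximal sums were 5502 to 6059 CPM in DMSO and 688 to 6186 CPM in NECA, the ileal sums 525 to 924 and 634 to 3245 CPM, and the proliferation sums 910.4 to 1210 and 1036 to 2319 CPM. The median log2 fold changes of these lists were -0.68, 1.497 and 0.56 with all libraries and -0.39, 0.24 and 0.004 without NECA replicate 2.

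None of the genes of these 3 lists was at 0 in all libraries. Their part in the sterol gene results was not tested. In bulk tissue, fewer cells of a type and less RNA per cell cannot be told apart. The epithelial sum in NECA replicate 2 was 9858 CPM, against 10134 to 11584 CPM in the other libraries. By gene the picture differed: 6 of the 8 epithelial genes were at their highest there, against 30.1% of all genes. Only 1 was at its lowest, against 27.9% of all genes.

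**Figure D3:**
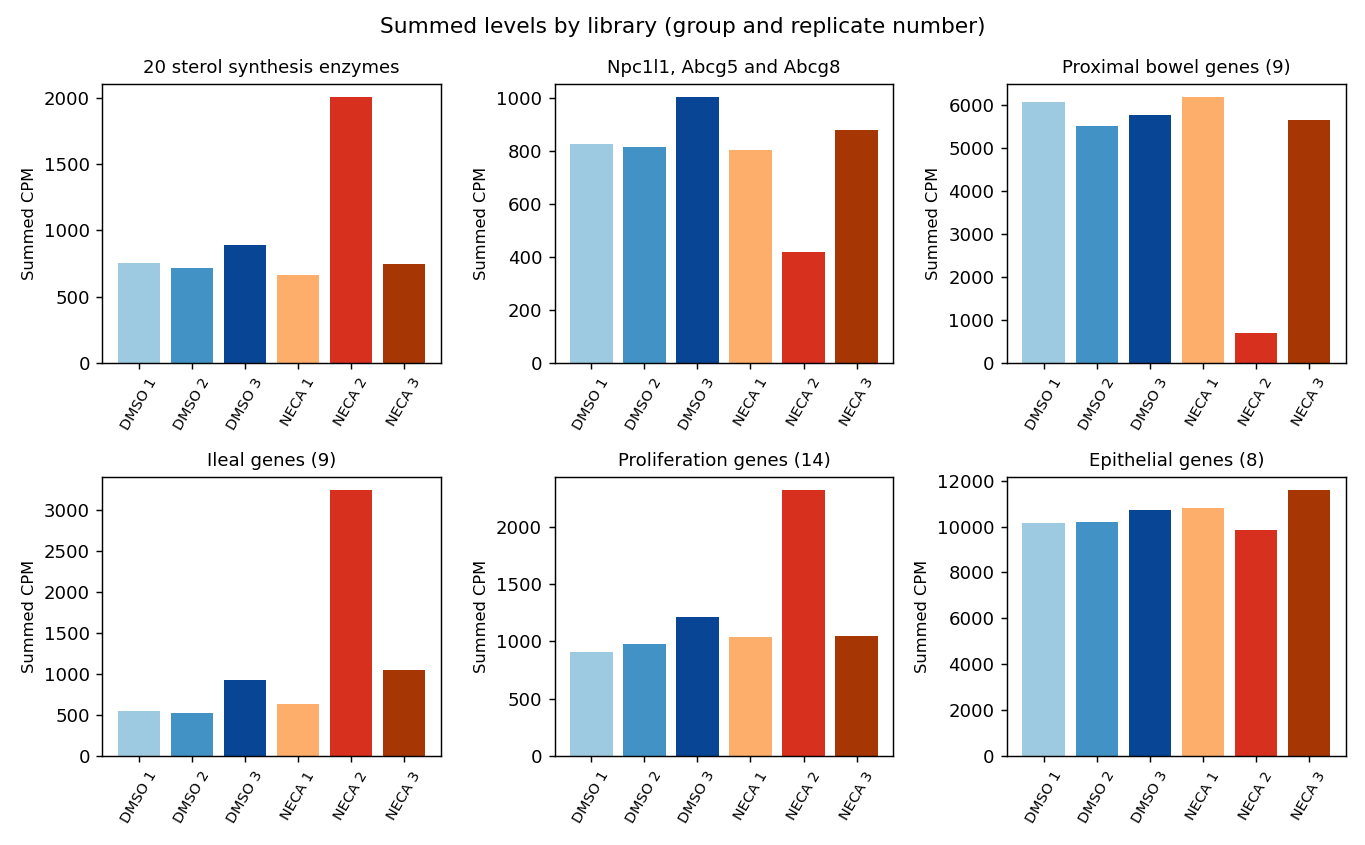
Summed CPM in each library of the 20 synthesis enzymes, of Npc1l1, Abcg5 and Abcg8, and of the tested proximal, ileal, proliferation and epithelial genes (bars start at 0; 1 bar per library). NECA replicate 2 has the highest sum of enzymes, ileal genes and proliferation genes. It has the lowest sum of Npc1l1, Abcg5 and Abcg8, which leaves out the efflux gene Abca1, and of proximal genes.

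Markers of other organs and tissues were also followed. Smooth muscle genes (6 of 6 tested) summed to 2264 to 5713 CPM in DMSO, highest in DMSO replicate 2, and 2522 to 2749 CPM in NECA. Of 8 hepatocyte genes 4 were tested (Alb, Ttr, Cps1 and Fgb). Their sums were 963 to 2075 CPM in DMSO and 2034 to 2492 CPM in NECA. The other 4 (Serpina3k, Ahsg, Cyp2e1 and Tat) did not pass the filter on low counts. Only 3 of 7 colon genes were tested (97.7 to 264 CPM in DMSO and 38.7 to 71.9 CPM in NECA; Hoxd13 was at 0), 1 of 8 acinar genes of the pancreas (20.01 to 57.7 and 0.349 to 74.0 CPM; Amy2a5 was at 0) and 1 of 5 adipocyte genes (237 to 279.8 and 48.3 to 268 CPM; Adipoq and Lep were at 0). The tested acinar gene was Ctrb1 and the tested adipocyte gene was Cidec. Sums that rest on part of a list do not show that these cells were present. Whether such cells were present, and their part in the results, was not tested.

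The other 5 libraries were closer together, and a smaller order among them recurred. With NECA replicate 2 set aside, DMSO replicate 3 was the highest library in 13 of 20 synthesis enzymes, against 16.4% of all genes, and NECA replicate 1 the lowest in 11 of 20, against 19.3%. DMSO replicate 3 was also the highest in Npc1l1 and Soat2. For 8 of the 20 enzymes the lowest of the 5 was DMSO replicate 2, against 30.7% of all genes. The male libraries, DMSO replicate 2 and NECA replicate 1, were the 2 lowest of all 6 in 9 of 20 enzymes (Mvk, Pmvk, Idi1, Sqle, Lss, Tm7sf2, Msmo1, Nsdhl and Dhcr7) and in Srebf2 and Stard4, against 8.35% of all genes. With 1 male library per group, sex and library cannot be told apart.

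Within sex, the NECA and DMSO male libraries differed by a median of -0.07 on the log2 scale over the 20 enzymes, with 8 higher in NECA. Among female libraries the median was 0.67, with 19 of 20 higher in NECA, and with NECA replicate 3 as the only NECA library it was -0.09, with 7 of 20 higher. Sex as a covariate left 0 of the 31 called. Of these comparisons, the enzyme median was above 0 in those that included NECA replicate 2.

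Leaving it out changed the sign of the fold change in 16 of 20 enzymes and in Srebf2, Insig1 and Abcg5, or 19 of 31, against 20.2% of all genes. The enzyme median was 0.57 with all libraries and -0.14 without it, and that of the 11 other members 0.12 and -0.01. Of the 20 enzymes, Nsdhl (0.08, SE 0.23), Hsd17b7 (0.20, SE 0.17) and Sc5d (0.09, SE 0.13) kept a value above 0. With 2 NECA libraries, 2 of the 31 genes, Hmgcs1 and Cyp51, had an unadjusted p under 0.05, both lower in NECA, against 5.49% of all genes, and 0 of the 31 and 0% of all genes passed edgeR's adjusted threshold.

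**Figure D4:**
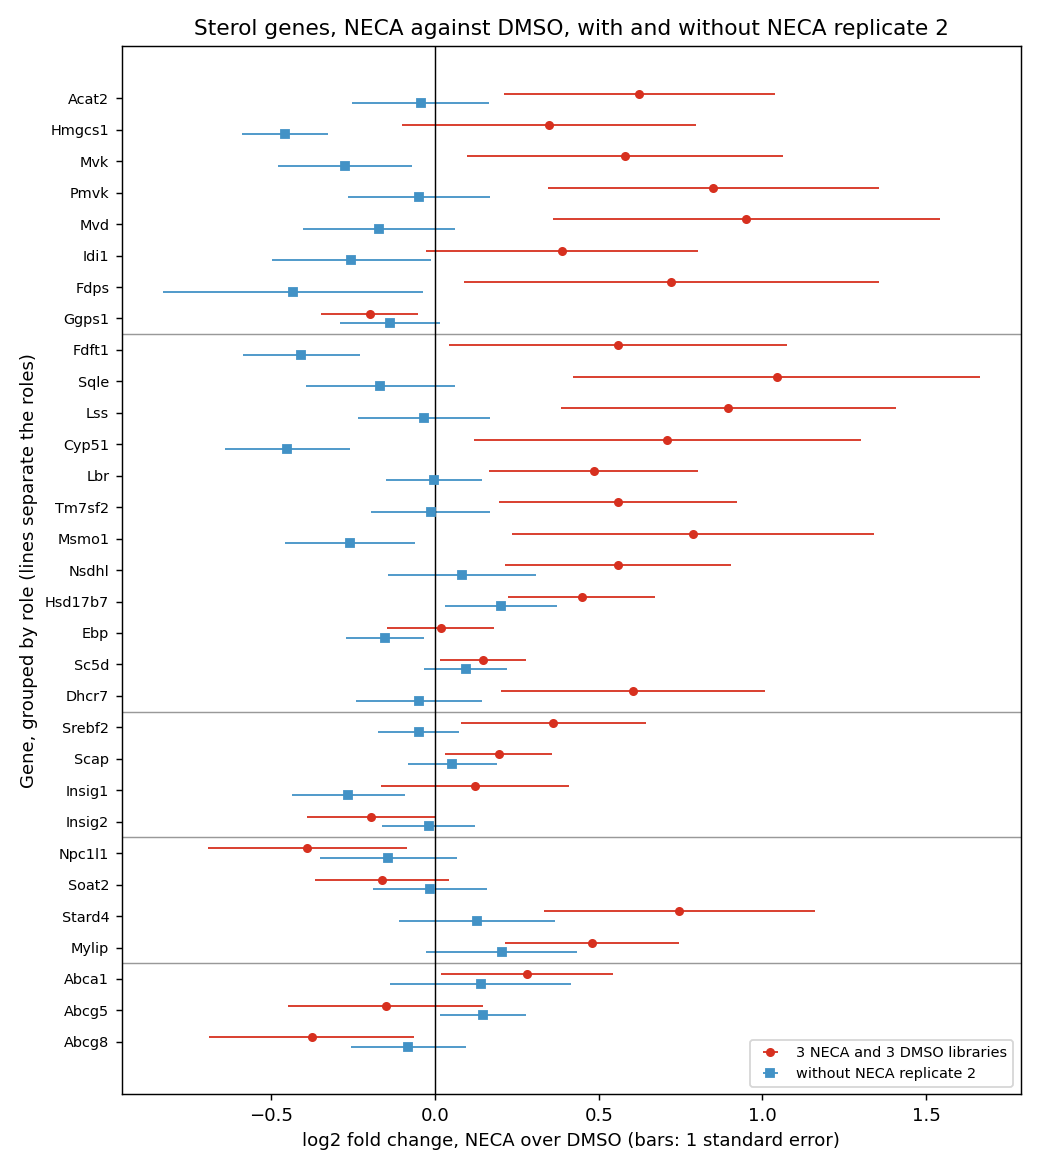
Log2 fold change, NECA over DMSO, of the 31 genes with all 6 libraries (circles) and without NECA replicate 2 (squares), with bars of 1 standard error and lines between the 5 roles. Most enzyme values lie right of 0 with all libraries and at or left of 0 without NECA replicate 2, as in Sqle (1.04 and -0.17) and Hmgcs1 (0.35 and -0.46).

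A further 36 genes of sterol and isoprenoid metabolism were examined as a list, of which 35 were tested. With edgeR 0 of the 35 passed, 19 had fold changes above 0 and 16 below, and the median was 0.01 with all libraries and 0.03 without NECA replicate 2. NECA replicate 2 was the highest library in 10 of the 35, against 30.1% of all genes, and the lowest in 15, against 27.9%. Stard5, Scarb1, Ch25h, Gramd1a and Scd2 were among those with the smallest unadjusted p values, each with an adjusted p of 0.738.

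Stard5, a carrier of sterols and bile acids, was at 53.9, 40.6 and 52.7 CPM in DMSO and 71.9, 83.0 and 63.2 CPM in NECA. All NECA libraries lay above all DMSO libraries (log2 fold change 0.57, SE 0.17, and 0.46, SE 0.16, without NECA replicate 2). Scarb1, the receptor for high-density lipoprotein, was at 62.3, 40.02 and 44.1 CPM in DMSO and 32.0, 22.5 and 37.1 CPM in NECA, with every NECA library below every DMSO library (-0.68, SE 0.24, and -0.50, SE 0.21). Ch25h, the cholesterol 25-hydroxylase, was at 1.12, 0.870 and 1.06 CPM in DMSO and 0.582, 0.498 and 0.574 CPM in NECA (-0.88, SE 0.35, and -0.81, SE 0.46). These values came from 20, 13 and 17 counts in DMSO and 9, 10 and 10 counts in NECA. With so few counts in NECA, Ch25h passed the filter on low counts only through the DMSO libraries. Its lack of overlap, counted below, is therefore no support for a difference. In the whole list the groups did not overlap in 2 of 35 genes with NECA higher, Stard5 and Nus1, against 6.49% of all genes, and in 2 of 35 with NECA lower, Scarb1 and Ch25h, against 7.16%. Nus1, a subunit of the enzyme that makes dolichol, is named after its values were seen, and its log2 fold change was 0.20 (SE 0.14), or 0.17 (SE 0.13) without NECA replicate 2.

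Gramd1a, which moves cholesterol from the plasma membrane, was at 21.7, 26.4 and 20.1 CPM in DMSO and 17.1, 20.8 and 15.2 CPM in NECA. Scd2, a fatty acid desaturase, was at 118, 77.8 and 187.9 CPM in DMSO and 53.5, 1115 and 94.4 CPM in NECA. Its log2 fold change was 1.72 (SE 1.04) with all libraries and -0.79 (SE 0.38) without NECA replicate 2.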

How the data were processed

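Whole-number counts per gene, not normalized, and FPKM values were deposited by the authors, 1 file per library, per the file headers. Per the submitters' processing notes, HISAT, StringTie and edgeR were used with mm10 and GRCm38. Their versions, annotation, strand and multiple-match settings were not given in the sources used here. Groups came from the sample titles. Genes were filtered with filterByExpr (minimum count 10, minimum total 15), scaled with TMM and tested with edgeR 4.0.16's quasi-likelihood test in R 4.3.3, two-sided, Benjamini-Hochberg adjusted over 15847 genes, threshold 0.05. SE is the fold change over the root of its F statistic. Depth was 15531996 to 18065078 counts. Alternatives were other scalings, filters, a replicate block, DESeq2 1.42.0, each library left out and, added after seeing the data, sex as a covariate. The script was tested on simulated data. Coordinates are from GENCODE M21 on GRCm38. The members and lists were chosen with earlier results of these data known. Every member is named. Of the other pathway genes, up to 6 with the smallest p are named, of which 1 is not reported here. Motifs, library positions and within-sex values were chosen after seeing data.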

Additional observations from a re-analysis of the deposited data

How the results depend on the processing

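With edgeR's quasi-likelihood test, 0 of the 31 genes passed the adjusted threshold under any alternative run, and DESeq2 called 0. Over all genes, 2 were called with no filter on low counts and 11 with DESeq2, against 0 otherwise. Over the fits leaving out 1 library each, the median log2 fold change ran from -0.049 to 0.65 for the 31 genes, -0.14 to 0.87 for the 20 enzymes and -0.015 to 0.29 for the 11 others, lowest without NECA replicate 2 and highest without NECA replicate 1. Without NECA replicate 1, 7 of the 31 had an unadjusted p under 0.05 with edgeR, against 1113 of all 16295 genes. They were Pmvk, Mvd, Sqle, Lss, Tm7sf2, Dhcr7 and Stard4. With no filter 5 did (Pmvk, Mvd, Sqle, Lss and Stard4), against 1578 of 27067. All 7 were at least 2 times as high in NECA replicate 2 as in any other library. The stricter filter of 5 CPM in 3 libraries left out Fdps. By gene, the lowest and highest of these fits for the 19 whose sign turned were Acat2 -0.043 to 0.91, Hmgcs1 -0.46 to 0.65, Mvk -0.28 to 0.93, Pmvk -0.048 to 1.20, Mvd -0.17 to 1.34, Idi1 -0.26 to 0.64, Fdps -0.43 to 1.08, Fdft1 -0.41 to 0.92, Sqle -0.17 to 1.43, Lss -0.033 to 1.23, Cyp51 -0.45 to 1.10, Lbr -0.0029 to 0.68, Tm7sf2 -0.014 to 0.82, Msmo1 -0.26 to 1.15, Ebp -0.15 to 0.12, Dhcr7 -0.049 to 0.91, Srebf2 -0.0499 to 0.55, Insig1 -0.26 to 0.29 and Abcg5 -0.39 to 0.15. Ebp was -0.0026 with the stricter filter and -0.00077 with the replicate block. With the replicate number as a block the medians were 0.29 for the 31 genes, 0.39 for the enzymes and 0.06 for the others, with 0 called. The deviations of same-numbered libraries had correlations of 0.00871, -0.186 and -0.0202, and those of differently numbered libraries -0.3 to 0.248. With 3 libraries a group, these values cannot decide whether the numbers pair the libraries. The cause of these shifts was not tested. With 3 libraries a group and a common biological coefficient of variation over all genes of 0.276 (0.213 without NECA replicate 2), small differences were not detectable. Larger fitted changes of members did not pass either, such as those of Sqle (1.04, SE 0.62) and Mvd (0.95, SE 0.59).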
